A study of Mus musculus with 12 samples.

Results

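Acetyl groups on histone tails are placed by histone acetyltransferases, removed by histone deacetylases and sirtuins, and read by bromodomain proteins such as those of the BET family. The transcripts of 34 such genes were compared in mouse ear fibroblasts grown on alginate gels. The rule for the genes was their names alone, although the list was drawn up with earlier results of these data known: 11 classical histone deacetylases, 7 sirtuins, 14 acetyltransferases and coactivators, and the BET readers Brd2 and Brd3. All 34 were among the 33246 genes of the count table, and all 34 passed the expression filter that 14542 genes passed.

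The 12 samples formed 4 groups of 3, namely 2 kPa Elastic, 2 kPa Viscoelastic, 20 kPa Elastic and 20 kPa Viscoelastic. In every group, fibroblasts from mouse ears were used at passage 2, seeded at 500000 cells per sample and collected after 48 h. The study drew ear fibroblasts from C57BL/6 mice 1 month old, male and female, and from Tau-EGFP reporter mice, and which of them gave the RNA samples is not stated. Elastic gels were crosslinked covalently, whereas viscoelastic gels were crosslinked ionically and relaxed slowly under stress, so the crosslinking chemistry and the relaxation cannot be told apart. Both carried the RGD adhesion peptide.

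Acetylation loosens the contact between histones and DNA and marks active promoters and enhancers. Class I deacetylases (Hdac1, Hdac2, Hdac3 and Hdac8) are mostly nuclear enzymes, and the first 3 named work inside large corepressor complexes. Class IIa enzymes (Hdac4, Hdac5, Hdac7 and Hdac9) have little activity of their own, shuttle between nucleus and cytoplasm under the control of kinases, and bind MEF2 factors. Class IIb enzymes and several sirtuins act largely on proteins other than histones. In fibroblasts this system takes part in the response to mechanical load and in myofibroblast activation. RNA levels say nothing directly of enzyme activity, of protein amount or of where the protein sits in the cell.

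Libraries held 36626221 to 43612804 counts, of which the 34 genes took 65094 to 77616. The lowest count of a member in any sample was 87, for Hdac11, and the highest 11704, for Brd2. All 10 fibroblast markers were detected, with a summed level (CPM, the count scaled to library size) of 75152 to 83100 on 2 kPa Elastic, 65918 to 70345 on 2 kPa Viscoelastic, 68021 to 71150 on 20 kPa Elastic and 58090 to 60633 on 20 kPa Viscoelastic gels. The sums were thus lower on viscoelastic gels at both stiffnesses, with no overlap. On average Dcn (log2 fold change 0.54, adjusted p = 0.0011) and Vim (0.17, adjusted p = 0.0275) rose, while Fn1 (-0.41, adjusted p = 0.000994), Thy1 (-0.22, adjusted p = 0.0166) and Pdgfrb (-0.12, adjusted p = 0.0348) fell. At 20 kPa Lum (0.70, adjusted p = 0.0014) and Col3a1 (0.26, adjusted p = 0.0419) also rose, while Fn1 (-0.51, adjusted p = 0.00345) and Thy1 (-0.53, adjusted p = 0.000837) fell. The single markers thus went both ways although their sum fell. Summed markers of keratinocytes (14.1 to 23.3 CPM), immune cells (5.17 to 9.01 CPM), endothelial cells (2.25 to 3.69 CPM), skeletal muscle (0.117 to 1.06 CPM) and Schwann cells and melanocytes (2.33 to 4.25 CPM, with Tyr at 0 in all samples) were low. Summed chondrocyte markers were 4641 to 5958 CPM on 2 kPa Elastic, 4656 to 5908 CPM on 2 kPa Viscoelastic, 4363 to 4415 CPM on 20 kPa Elastic and 4669 to 5891 CPM on 20 kPa Viscoelastic gels. The 20 kPa Elastic range thus lay below those of all other groups, which overlapped. Comp rose on viscoelastic gels at 20 kPa (log2 fold change 0.64, adjusted p = 0.00175), as did Matn3 (0.56, adjusted p = 0.0377), and Acan fell at 2 kPa (-0.47, adjusted p = 0.00847). Acan also fell with stiffness on elastic gels (-0.50, adjusted p = 0.00767), where no other tested chondrocyte marker was called. The part of either marker shift in the members' differences was not tested. In bulk RNA, fewer cells of a type and less RNA per cell cannot be told apart.

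Set per kilobase of exon, so that genes can be compared, mean levels over the 12 samples spanned from 0.342 ± 0.0436 CPM per kb for Hdac9 to 33.7 ± 0.935 CPM per kb for Brd2 (SD, n = 12). Brd2, a BET protein that binds acetylated histone H4, was followed by Hdac2 at 29.5 ± 2.45, Hdac1 at 17.7 ± 0.915 and Hdac3 at 16.5 ± 0.577 CPM per kb. The ranges of Brd2 and Hdac2 overlapped. The class I enzymes of the corepressor complexes thus stood above every other deacetylase. Hat1, which acetylates newly made histone H4, came next at 15.1 ± 2.21 CPM per kb and differed from Hdac3 by less than its spread. The lower end held the class IIa enzymes Hdac9 and Hdac4 (1.38 ± 0.153 CPM per kb), the mitochondrial sirtuins Sirt3 (0.859 ± 0.0864) and Sirt5 (0.944 ± 0.138), and Hdac11, the lone class IV enzyme (0.680 ± 0.0677). Sirt3 and Sirt5 overlapped in their spread. From Kat2b at 8.80 ± 0.897 to Kat5 at 8.36 ± 0.496 CPM per kb, with Naa60 and Ep300 between them, neighbours could not be set in order. Hdac8 was the lowest of class I, at 2.85 ± 0.378 CPM per kb.

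**Figure D1:**
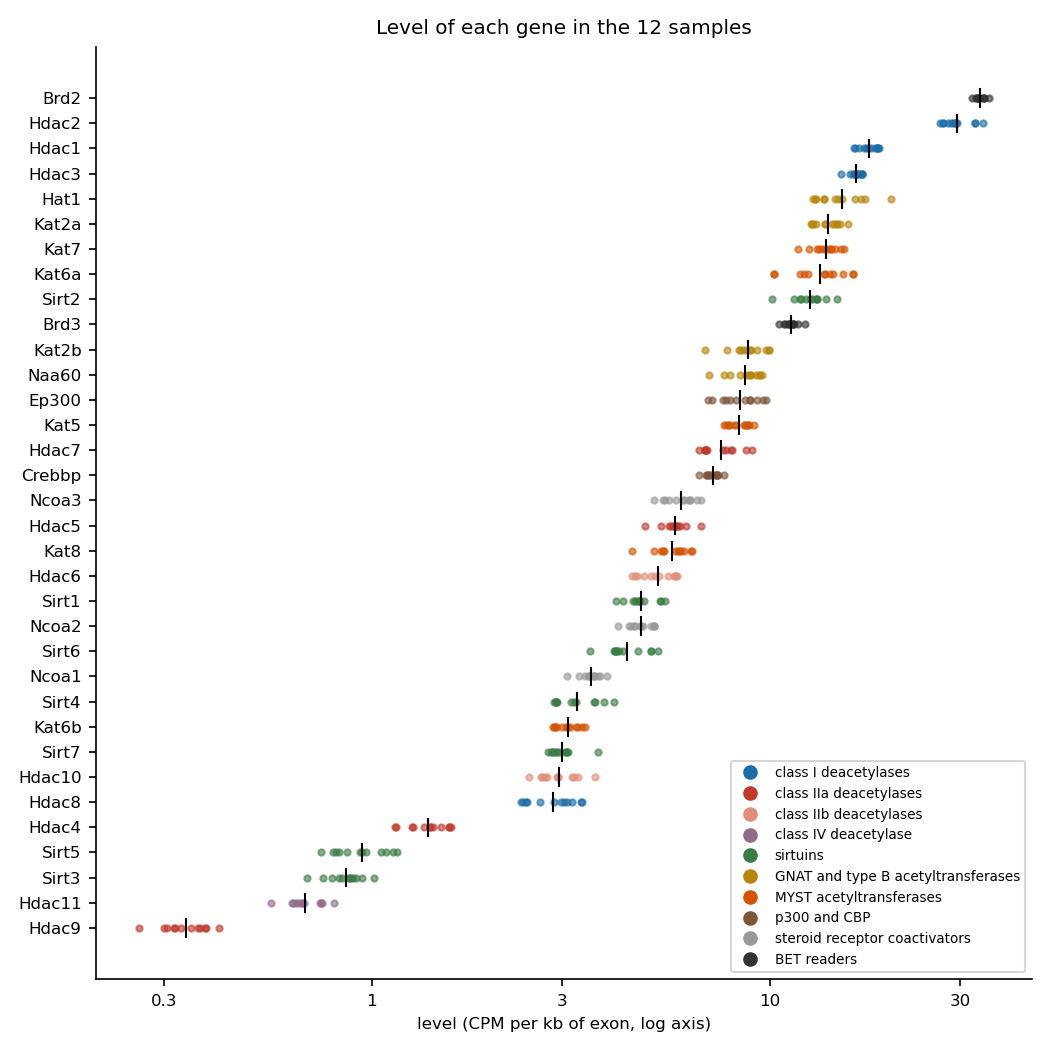
Level of each of the 34 genes in each of the 12 samples (dots, CPM per kb of exon, log axis) with the mean as a vertical bar, coloured by family and ordered by mean. Brd2 (33.7 CPM per kb) and Hdac2 (29.5 CPM per kb) stand at the top and Hdac9 (0.342 CPM per kb) at the bottom.

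Genes were called where the edgeR quasi-likelihood test, adjusted over all 14542 genes by the Benjamini-Hochberg method, gave p under 0.05. Of the 34 genes, 19 were called in at least 1 of 6 comparisons and 15 in none. The share of all genes called in at least 1 comparison was not counted, so these numbers only describe the list. On 20-kPa gels 15 members differed between viscoelastic and elastic gels, 8 higher and 7 lower, against 33.5% of all genes called, 17.4% higher and 16.1% lower. On 2-kPa gels the members called were 5, of which 2 were higher and 3 lower, against 19.9% of all genes, 8.77% higher and 11.1% lower. Averaged over both stiffnesses, 15 members were called, 8 higher and 7 lower, against 40% of all genes, 19.6% higher and 20.4% lower. From 2 to 20 kPa on elastic gels 5 members changed, 3 higher and 2 lower, against 14% of all genes, 6.81% higher and 7.14% lower. The members' share was under the background at 2 kPa, over it at 20 kPa and near it in the other 2 comparisons, and these differences were not tested. The same change of stiffness on viscoelastic gels gave no called member with edgeR, against 2.28% of all genes. At an unadjusted edgeR p under 0.05 there were 7 members, and DESeq2 called 4 (Hdac2, Hdac6, Hdac7 and Sirt6). The shares of all genes at these 2 other settings are not given here, and the 2.28% does not apply to them.

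Changes were small. The largest called log2 fold change between 2 groups was 0.46, for Sirt5 on 20-kPa gels. The direction of the viscoelastic difference was the same at both stiffnesses in 26 of the 34 genes, whether called or not. The share of all genes with the same direction was not counted. The count at 2 kPa fell to 1 without 2 kPa Elastic replicate 1 or 2 kPa Viscoelastic replicate 2, to 2 without 2 kPa Elastic replicate 2 and to 3 without 2 kPa Viscoelastic replicate 3. The count at 20 kPa fell to 7 without 20 kPa Elastic replicate 3, and to 9 without 20 kPa Elastic replicate 2 or 20 kPa Viscoelastic replicate 2. On elastic gels, the count for stiffness fell to 3 without any 1 of the 6 elastic libraries. The shares of all genes called in these smaller fits are not given here.

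**Figure D2:**
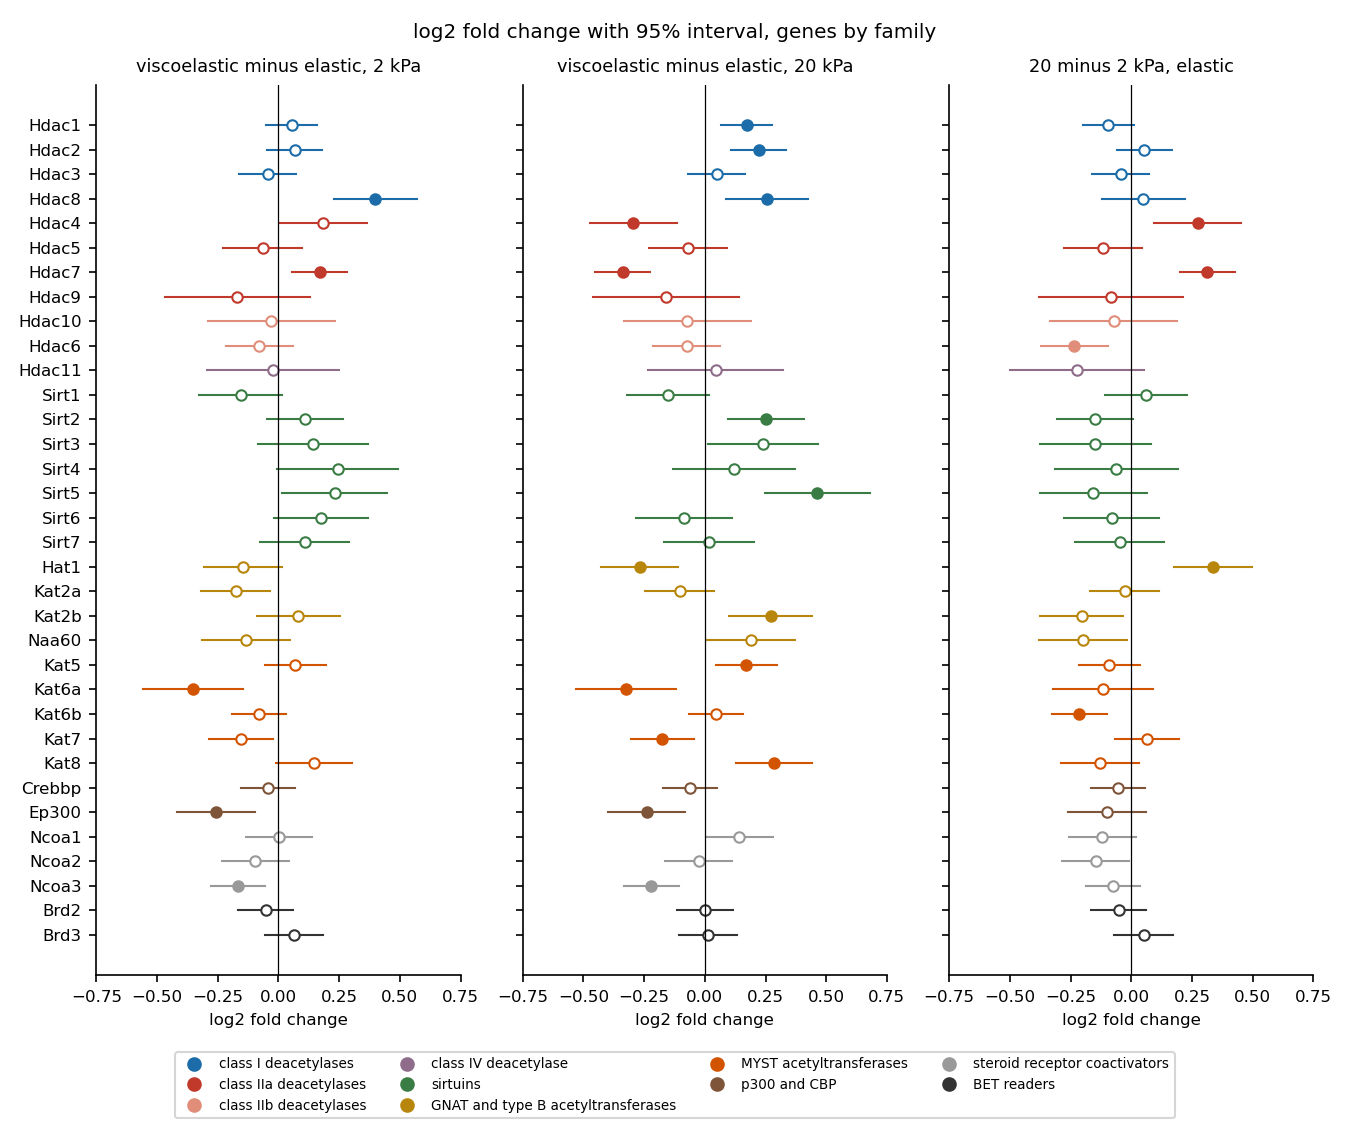
Log2 fold change of each of the 34 genes with its 95% interval in 3 comparisons, grouped by family; filled dots were called (adjusted p under 0.05). Hdac4 and Hdac7 lie to the right of 0 in the left and right panels and to the left of 0 in the middle panel, whereas Kat6a, Ep300 and Ncoa3 lie to the left in both viscoelastic panels.

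Among class I enzymes, 3 of 4 rose on viscoelastic gels on average and none fell, beside 19.6% of all genes higher and 20.4% lower. The family's median log2 fold change was 0.13, beside 0.0097 over all tested genes. Hdac8, an X-linked class I enzyme known to deacetylate the cohesin subunit SMC3, changed most. On 2-kPa gels it read 11.5, 12.8 and 11.8 CPM where they were elastic and 14.98, 16.3 and 16.4 CPM where they were viscoelastic. On 20-kPa gels the values were 13.8, 11.9 and 11.6 CPM (elastic) and 14.7, 15.4 and 14.5 CPM (viscoelastic). Every viscoelastic sample lay above every elastic sample. The log2 fold change was 0.40 ± 0.080 (SE) at 2 kPa (adjusted p = 0.00323), 0.26 ± 0.079 at 20 kPa (adjusted p = 0.0219) and 0.33 ± 0.056 on average (adjusted p = 0.000424). The call at 20 kPa was lost without 20 kPa Elastic replicate 2 or 3 or 20 kPa Viscoelastic replicate 2, with adjusted p up to 0.0984, and the other 2 calls were kept in every alternative.

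The promoter of Hdac8 is shown because this gene had the lowest adjusted p of the 34 in the average comparison. It spans chrX:102505109-102505408 on the minus strand (GRCm38.p6, RefSeq), from 250 bases before to 50 after the start, with 49.7% GC. Capitals mark matches, on either strand, to the CCAAT box (CCAAT), the TATA box (TATAAA), the GC box (GGGCGG), the AP-1 site (TGANTCA), the cAMP response element (TGACGTCA) and the TEAD site (GGAATG).
Hdac8: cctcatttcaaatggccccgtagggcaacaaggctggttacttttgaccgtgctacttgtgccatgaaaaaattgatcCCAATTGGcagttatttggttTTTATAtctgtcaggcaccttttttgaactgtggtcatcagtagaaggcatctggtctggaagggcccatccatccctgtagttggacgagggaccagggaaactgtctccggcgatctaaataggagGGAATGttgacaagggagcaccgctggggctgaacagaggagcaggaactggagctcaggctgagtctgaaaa
It holds 2 CCAAT matches that overlap, 1 TATA match on the reverse strand and 1 TEAD match. Over 32851 mouse promoters of this length, 37.4% hold a CCAAT match, 13.6% a TATA match, 35.7% a GC box, 7.81% an AP-1 match, 1.79% a cAMP response element and 14.7% a TEAD match. These matches are letters, not sites shown to be bound.

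Hdac2 and Hdac1 are close paralogs that work in the NuRD, Sin3 and CoREST complexes. Hdac2 read 121, 119.6 and 128 CPM (2 kPa Elastic), 125, 131 and 129.8 CPM (2 kPa Viscoelastic), 132, 122 and 129 CPM (20 kPa Elastic), while 20 kPa Viscoelastic gels gave 147, 146 and 153 CPM. Only the 20 kPa Viscoelastic samples stood clear of all others. Hdac2 rose by 0.22 ± 0.054 at 20 kPa (log2, adjusted p = 0.00586) and by 0.14 ± 0.038 on average (adjusted p = 0.00754), and both calls were kept in every alternative. From 2 to 20 kPa on viscoelastic gels its log2 difference was 0.21 ± 0.054 with adjusted p = 0.0543, which edgeR did not call and DESeq2 did (adjusted p = 0.00619).

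Hdac1 read 61.9, 59.3 and 60.6 CPM (2 kPa Elastic), 64.7, 64.0 and 60.2 CPM (2 kPa Viscoelastic), 56.5, 56.1 and 57.6 CPM (20 kPa Elastic), while 20 kPa Viscoelastic gels gave 64.3, 64.2 and 63.4 CPM. Groups did not overlap at 20 kPa and overlapped at 2 kPa. Hdac1 rose by 0.17 ± 0.049 at 20 kPa (log2, adjusted p = 0.0144) and by 0.11 ± 0.035 on average (adjusted p = 0.0170). Neither call was kept once exon length and GC content were modelled (log2 fold change 0.10 with adjusted p = 0.139, and 0.06 with adjusted p = 0.185), and that at 20 kPa was lost without 20 kPa Elastic replicate 1 or 2 (adjusted p up to 0.0589). Both Hdac1 calls were also lost with every gene that had a count. Hdac3, the catalytic subunit of nuclear receptor corepressor complexes, was the only class I enzyme with no call, at 61.2 to 69.2 CPM over all samples and a mean log2 fold change of 0.0023 (adjusted p = 0.971).

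The summed level of the 4 class I genes was 63.8 ± 1.73 CPM per kb on 20 kPa Elastic and 71.6 ± 0.500 CPM per kb on 20 kPa Viscoelastic gels (SD, n = 3), ranges that did not overlap. At 2 kPa the sums were 64.2 ± 1.36 and 66.5 ± 0.360 CPM per kb, with ranges of 62.7 to 65.4 and 66.3 to 66.9 that did not overlap either. The sum of the 6 class II genes went the other way at 20 kPa, with 24.0 ± 1.04 CPM per kb on elastic and 21.2 ± 0.504 CPM per kb on viscoelastic gels, whereas at 2 kPa it was 23.6 ± 0.647 and 23.9 ± 1.10 CPM per kb. Hdac2 holds the largest share of the class I sum. These sums are descriptions of the listed genes.

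In class IIa, the viscoelastic effects on Hdac7 and Hdac4 differed between the 2 stiffnesses, being above 0 at 2 kPa and below 0 at 20 kPa. They were the only members called for the interaction, both lower, against 7.56% of all genes called and 3.12% called lower. Hdac7 represses MEF2 targets and is known from endothelial and thymic cells. On 2-kPa gels it read 46.7, 46.9 and 46.5 CPM (elastic) and 51.5, 52.3 and 53.9 CPM (viscoelastic). On 20-kPa gels it read 54.4, 60.9 and 58.8 CPM (elastic) and 46.3, 44.9 and 46.5 CPM (viscoelastic). The groups did not overlap in any of the 4 pairwise comparisons, so that the 20 kPa Viscoelastic samples sat at or below the 2 kPa Elastic level.

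Hdac7 rose by 0.31 ± 0.053 with stiffness on elastic gels (log2, adjusted p = 0.00148), rose by 0.17 ± 0.053 on viscoelastic gels at 2 kPa (adjusted p = 0.0352) and fell by 0.34 ± 0.053 at 20 kPa (adjusted p = 0.000366). The 2 viscoelastic effects differed by -0.51 ± 0.075 (interaction, adjusted p = 0.000867). The calls for stiffness on elastic gels, at 20 kPa and for the interaction were kept in every alternative. That at 2 kPa was lost without any 1 of 2 kPa Elastic replicates 1, 2 and 3 and 2 kPa Viscoelastic replicates 2 and 3 (adjusted p up to 0.108), with a replicate term (adjusted p = 0.0543), with the 6 samples compared alone (adjusted p = 0.0565) and with every gene that had a count (adjusted p = 0.0832). Its log2 fold change was 0.33 when exon length and GC content were modelled. From 2 to 20 kPa on viscoelastic gels Hdac7 gave -0.19 ± 0.053 (adjusted p = 0.0652), which DESeq2 called (adjusted p = 0.0202).

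Hdac4, the best known class IIa repressor of MEF2 in muscle and bone, had effects of the same signs with wider spread. It read 20.0, 22.6 and 18.1 CPM (2 kPa Elastic), 24.7, 22.1 and 22.1 CPM (2 kPa Viscoelastic), 24.7, 24.997 and 23.6 CPM (20 kPa Elastic), while 20 kPa Viscoelastic gels gave 20.1, 21.4 and 18.2 CPM. The 20-kPa groups did not overlap, and the 2-kPa groups did. Hdac4 rose by 0.27 ± 0.084 with stiffness on elastic gels (log2, adjusted p = 0.0416) and fell by 0.29 ± 0.084 on viscoelastic gels at 20 kPa (adjusted p = 0.0143). At 2 kPa the difference was 0.19 ± 0.084 (adjusted p = 0.132), and 0.35 with a call once exon length and GC content were modelled (adjusted p = 0.00865). The interaction was -0.48 ± 0.118 (adjusted p = 0.0229).

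The Hdac4 call for stiffness was lost without 2 kPa Elastic replicate 1 or 3, any 20 kPa Elastic replicate, 2 kPa Viscoelastic replicate 3 or 20 kPa Viscoelastic replicate 1 (adjusted p up to 0.166). That at 20 kPa was lost without 20 kPa Viscoelastic replicate 3 (adjusted p = 0.0734) and with exon length and GC content modelled, where the log2 fold change was -0.17 (adjusted p = 0.131). The interaction was lost without 2 kPa Elastic replicate 1 or 3, 2 kPa Viscoelastic replicate 1, 20 kPa Elastic replicate 2 or 20 kPa Viscoelastic replicate 3 (adjusted p up to 0.0633). An opposite-strand lincRNA, Gm26720, covers 22.4% of the exon bases of Hdac4, and without a stated strand setting its reads cannot be told apart there.

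The promoters of the pair are shown because both genes were called for the interaction. That of Hdac4 is chr1:92180292-92180591 and that of Hdac7 is chr15:97844453-97844752, both on the minus strand (GRCm38.p6, RefSeq), and capitals mark the same motifs. Hdac7 has 4 starts listed, and the one farthest upstream is shown.
Hdac4: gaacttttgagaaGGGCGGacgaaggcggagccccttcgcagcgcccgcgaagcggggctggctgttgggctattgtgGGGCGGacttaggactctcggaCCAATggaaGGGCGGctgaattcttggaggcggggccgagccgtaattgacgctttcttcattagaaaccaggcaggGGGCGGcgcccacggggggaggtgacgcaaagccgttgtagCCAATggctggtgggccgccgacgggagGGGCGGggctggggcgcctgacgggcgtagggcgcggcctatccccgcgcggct
Hdac7: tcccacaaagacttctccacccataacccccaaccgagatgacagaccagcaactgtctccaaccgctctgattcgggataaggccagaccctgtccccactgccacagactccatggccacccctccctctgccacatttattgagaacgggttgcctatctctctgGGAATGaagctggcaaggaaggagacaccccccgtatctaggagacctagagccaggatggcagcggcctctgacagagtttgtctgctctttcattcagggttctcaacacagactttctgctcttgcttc
The window of Hdac4 has 68.0% GC, 32 CpG, 5 GC boxes and 2 CCAAT matches. That of Hdac7 has 54.7% GC, 6 CpG and 1 TEAD match. The pair shares none of the 6 motifs in these windows.

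**Figure D3:**
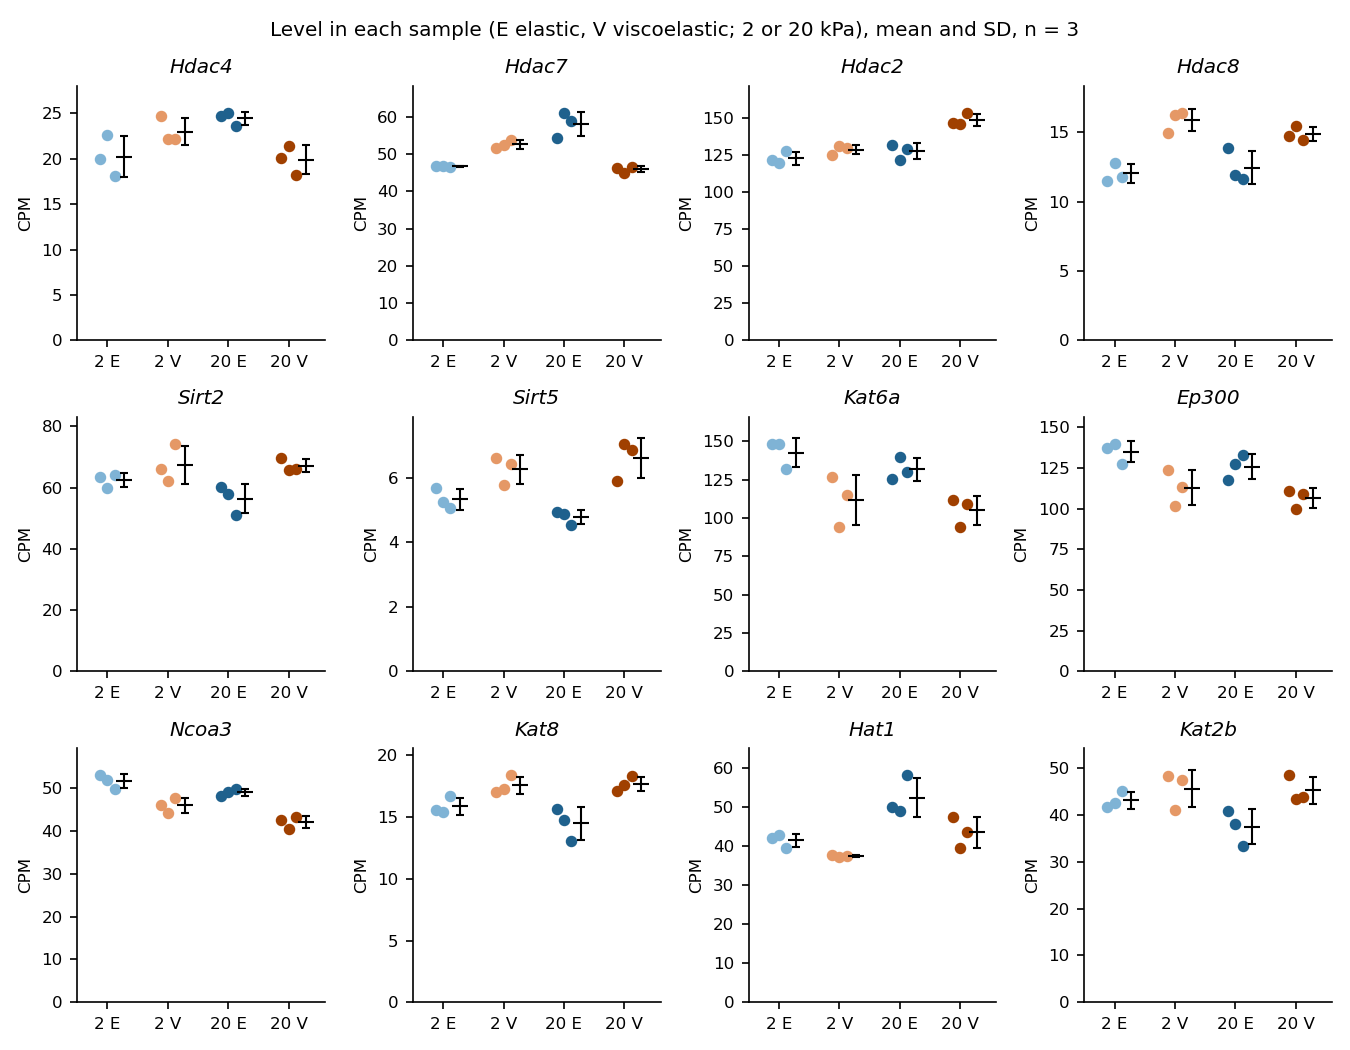
Level of 12 called genes in each sample (dots, CPM, axis from 0), with the mean and SD of each group of 3 to the right of the dots; E is elastic, V viscoelastic, and 2 and 20 are kPa. Hdac4 and Hdac7 fall from 20 E to 20 V and are highest in 20 E, while all 6 V samples of Hdac8 and Sirt5 lie above all 6 E samples.

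Hdac5 and Hdac9, the other class IIa enzymes, were not called in any comparison. Hdac5 lay between 42.7 and 59.0 CPM and Hdac9 between 3.81 and 6.07 CPM. Per kilobase, Hdac7 stood at 1.52 ± 0.116 times Hdac5 on 20 kPa Elastic gels and at 1.13 ± 0.0900 times on 2 kPa Elastic gels (SD, n = 3), ranges that did not overlap. The ratio was 1.33 ± 0.0606 on 2 kPa Viscoelastic and 1.27 ± 0.135 on 20 kPa Viscoelastic gels. The class IIa median was 0.05 at 2 kPa and -0.23 at 20 kPa on the log2 scale, and its average of -0.08 turned to 0.06 when exon length and GC content were modelled.

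Of the class IIb and class IV enzymes, only Hdac6 was called, for stiffness. Hdac6 deacetylates tubulin and cortactin in the cytoplasm. It read 33.4, 33.8 and 33.99 CPM (2 kPa Elastic), 30.6, 29.2 and 26.2 CPM (20 kPa Elastic), 29.98, 33.6 and 32.2 CPM (2 kPa Viscoelastic), while 20 kPa Viscoelastic gels gave 26.7, 28.04 and 27.0 CPM. The 2-kPa and 20-kPa groups did not overlap on either kind of gel. Hdac6 fell by 0.23 ± 0.065 on elastic gels (log2, adjusted p = 0.0254), and on viscoelastic gels its difference was -0.23 ± 0.065 (adjusted p = 0.0713), called by DESeq2 (adjusted p = 0.0253).

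The Hdac6 call on elastic gels was lost with exon length and GC content modelled (adjusted p = 0.0845), and without any 2 kPa Elastic replicate or without 20 kPa Elastic replicate 2 or 3 (adjusted p up to 0.129). Hdac10, a polyamine deacetylase, stayed between 8.39 and 12.3 CPM with no call. Hdac11, a remover of long fatty-acyl groups, stayed between 2.14 and 3.09 CPM with no call.

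Sirtuins use NAD to remove acetyl or other acyl groups. On average 2 of the 7 rose on viscoelastic gels, 1 fell and 4 were not called, beside 19.6% of all genes higher and 20.4% lower, with a family median of 0.18 on the log2 scale. Sirt5, the mitochondrial remover of succinyl, malonyl and glutaryl groups, had the largest called difference between 2 groups of all 34 genes. It read 5.69, 5.26 and 5.05 CPM (2 kPa Elastic), 6.61, 5.76 and 6.44 CPM (2 kPa Viscoelastic), 4.95, 4.88 and 4.54 CPM (20 kPa Elastic), while 20 kPa Viscoelastic gels gave 5.90, 7.04 and 6.87 CPM. Every viscoelastic sample lay above every elastic one. Sirt5 rose by 0.46 ± 0.10 at 20 kPa (log2, adjusted p = 0.0032) and by 0.35 ± 0.072 on average (adjusted p = 0.00159), calls that were kept in every alternative. Its counts were 184 to 299 per sample.

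The promoter of Sirt5 is shown because its gene changed most at 20 kPa. It is chr13:43365285-43365584 on the plus strand (GRCm38.p6, RefSeq), marked as above.
Sirt5: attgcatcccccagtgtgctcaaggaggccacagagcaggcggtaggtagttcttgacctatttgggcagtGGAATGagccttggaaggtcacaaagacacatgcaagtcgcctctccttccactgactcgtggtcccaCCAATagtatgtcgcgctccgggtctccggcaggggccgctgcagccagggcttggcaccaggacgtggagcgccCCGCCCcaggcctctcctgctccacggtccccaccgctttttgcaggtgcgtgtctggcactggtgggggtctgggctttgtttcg
This window has 62.0% GC, 15 CpG, 1 CCAAT match, 1 GC box and 1 TEAD match. A TEAD match is in the Hdac7, Hdac8 and Sirt5 windows shown and in 9 of the 40 listed promoters of 28 member genes (22.5%), beside 14.7% of all promoters. GC boxes are in 25 of these 40 (62.5%), whose median GC content was 61.7%, beside 52.7% over all promoters. CCAAT matches are in 37.5% of the 40, TATA matches in 5%, AP-1 matches in 10% and cAMP response elements in 0%. Over all promoters these shares are 37.4%, 13.6%, 7.81% and 1.79%, and 35.7% for the GC box. No difference in these shares was tested. The other 6 members have no entry in the promoter table.

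Sirt2, the cytoplasmic tubulin deacetylase, read 63.5, 59.9 and 64.1 CPM (2 kPa Elastic), 66.1, 62.0 and 74.1 CPM (2 kPa Viscoelastic), 60.1, 58.0 and 50.9 CPM (20 kPa Elastic), while 20 kPa Viscoelastic gels gave 69.6, 65.9 and 66.0 CPM. The groups overlapped at 2 kPa only. Sirt2 rose by 0.25 ± 0.073 at 20 kPa (log2, adjusted p = 0.0161) and by 0.18 ± 0.052 on average (adjusted p = 0.0121). The call at 20 kPa was lost without 20 kPa Elastic replicate 3 or 20 kPa Viscoelastic replicate 1 (adjusted p up to 0.0888).

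Sirt1, the nuclear sirtuin that acts on histones and transcription factors such as p53, was the one sirtuin that fell. It read 25.02, 24.98 and 28.5 CPM (2 kPa Elastic), 25.7, 21.9 and 22.9 CPM (2 kPa Viscoelastic), 24.6, 29.1 and 28.2 CPM (20 kPa Elastic), while 20 kPa Viscoelastic gels gave 24.5, 24.1 and 25.1 CPM, so that groups overlapped at both stiffnesses. Sirt1 fell by 0.15 ± 0.056 on average (log2, adjusted p = 0.0425). This call was lost with total counts alone, with a replicate term (adjusted p = 0.0581) and without any 1 of 8 libraries (2 kPa Elastic replicate 3, 2 kPa Viscoelastic replicates 2 and 3, 20 kPa Elastic replicates 2 and 3 and all 20 kPa Viscoelastic replicates), with adjusted p up to 0.11. Sirt3, the main mitochondrial deacetylase, gave 0.19 on average (adjusted p = 0.0545), and Sirt4 and Sirt7 gave 0.18 and 0.06 (adjusted p = 0.0927 and 0.442).

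Sirt6, a chromatin-bound deacetylase, was not called by edgeR, with differences of 0.18 at 2 kPa (adjusted p = 0.188) and -0.09 at 20 kPa (adjusted p = 0.508). From 2 to 20 kPa on viscoelastic gels it read 13.998, 14.6 and 13.0 CPM and then 11.6, 11.3 and 9.83 CPM, groups that did not overlap. This difference of -0.34 ± 0.091 (log2, adjusted p = 0.0617) was called by DESeq2 (adjusted p = 0.0182) and, by edgeR, with every gene that had a count (adjusted p = 0.0260).

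Acetyltransferases and coactivators went both ways: of 14 genes, 3 rose and 6 fell on viscoelastic gels on average, beside 19.6% and 20.4% of all genes, with a median log2 fold change of -0.06. In the MYST family, Kat6a fell and Kat8 rose. Kat6a (MOZ) acetylates histone H3 and read 148, 148 and 132 CPM (2 kPa Elastic), 127, 94.1 and 115 CPM (2 kPa Viscoelastic), 125, 140.1 and 129.8 CPM (20 kPa Elastic), while 20 kPa Viscoelastic gels gave 112, 94.1 and 109 CPM. Groups did not overlap at either stiffness. Kat6a fell by 0.35 ± 0.096 at 2 kPa (log2, adjusted p = 0.0186), by 0.33 ± 0.096 at 20 kPa (adjusted p = 0.0178) and by 0.34 ± 0.068 on average (adjusted p = 0.00132).

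The average call of Kat6a was kept in every alternative. That at 2 kPa was lost without 2 kPa Elastic replicate 1 or 2 or 2 kPa Viscoelastic replicate 2 (adjusted p up to 0.0770), and that at 20 kPa without 20 kPa Elastic replicate 2 or 20 kPa Viscoelastic replicate 2 (adjusted p up to 0.0818). Kat6b (MORF), its close relative, was called only for stiffness on elastic gels. It read 56.6, 57.8 and 54.9 CPM (2 kPa Elastic), 48.3, 48.9 and 48.9 CPM (20 kPa Elastic), 51.7, 53.0 and 55.5 CPM (2 kPa Viscoelastic), while 20 kPa Viscoelastic gels gave 50.6, 47.9 and 52.3 CPM. Elastic groups did not overlap, and Kat6b fell by 0.21 ± 0.052 between them (log2, adjusted p = 0.0142), a call lost without 2 kPa Elastic replicate 2 or 20 kPa Elastic replicate 1 (adjusted p up to 0.0626). Kat6b also lost this call with exon length, GC content and the replicate term modelled together. Its average viscoelastic difference of -0.02 (adjusted p = 0.747) became 0.11, with a call (adjusted p = 0.0272), once exon length and GC content were modelled.

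Per kilobase, Kat6a stood at 4.63 ± 0.202 times Kat6b on 2 kPa Elastic, 3.84 ± 0.617 on 2 kPa Viscoelastic, 4.96 ± 0.257 on 20 kPa Elastic and 3.83 ± 0.230 on 20 kPa Viscoelastic gels (SD, n = 3). Ranges of this ratio did not overlap at 20 kPa and overlapped at 2 kPa. Kat6b has the processed pseudogenes Kat6b-ps1 and Kat6b-ps2, with which it may share reads.

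Kat8 (MOF), which acetylates histone H4 in the MSL and NSL complexes, read 15.5, 15.4 and 16.7 CPM (2 kPa Elastic), 17.0, 17.2 and 18.4 CPM (2 kPa Viscoelastic), 15.7, 14.8 and 13.0 CPM (20 kPa Elastic), while 20 kPa Viscoelastic gels gave 17.1, 17.6 and 18.3 CPM. All viscoelastic samples lay above all elastic ones. Kat8 rose by 0.29 ± 0.074 at 20 kPa (log2, adjusted p = 0.00873) and by 0.22 ± 0.052 on average (adjusted p = 0.00451). The call at 20 kPa was lost without 20 kPa Elastic replicate 3 (adjusted p = 0.0501) and with exon length and GC content modelled (log2 fold change 0.19, adjusted p = 0.0569). The average call was lost with length, GC content and the replicate term modelled together (0.14, adjusted p = 0.0622).

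Kat7 (HBO1), which acetylates H3 and H4 and serves DNA replication origins, read 80.7, 78.8 and 77.4 CPM (2 kPa Elastic), 72.7, 65.3 and 74.9 CPM (2 kPa Viscoelastic), 79.0, 85.0 and 83.7 CPM (20 kPa Elastic), while 20 kPa Viscoelastic gels gave 76.2, 69.4 and 73.7 CPM. All viscoelastic samples lay below all elastic ones. Kat7 fell by 0.18 ± 0.061 at 20 kPa (log2, adjusted p = 0.0379) and by 0.16 ± 0.043 on average (adjusted p = 0.00735). The average call was kept in every alternative, while that at 20 kPa was lost with a replicate term (adjusted p = 0.0511) and without 2 kPa Elastic replicate 2, 20 kPa Elastic replicate 2 or 3, or 20 kPa Viscoelastic replicate 2 or 3 (adjusted p up to 0.143). The 20-kPa call was also lost with total counts alone and with every gene that had a count. Modelling length, GC content and the replicate term together ended it too.

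Kat5 (TIP60), which also acts in DNA repair, read 30.4, 28.8 and 27.7 CPM (2 kPa Elastic), 28.5, 32.0 and 30.9 CPM (2 kPa Viscoelastic), 27.7, 26.8 and 27.1 CPM (20 kPa Elastic), while 20 kPa Viscoelastic gels gave 31.1, 30.3 and 30.7 CPM. Groups overlapped at 2 kPa only. Kat5 rose by 0.17 ± 0.059 at 20 kPa (log2, adjusted p = 0.0354) and by 0.12 ± 0.041 on average (adjusted p = 0.0309). Both calls were close to the threshold. That at 20 kPa was lost without any 1 of the 6 20-kPa libraries (adjusted p up to 0.105), with DESeq2's test (adjusted p = 0.0532), with length and GC modelled (adjusted p = 0.067), with a replicate term (adjusted p = 0.0573) and with every gene that had a count (adjusted p = 0.102). The average was lost with a replicate term (adjusted p = 0.0503), with every gene that had a count (adjusted p = 0.0786) and without any 1 of 8 libraries (adjusted p up to 0.0749), all but 2 kPa Elastic replicate 1, 2 kPa Viscoelastic replicate 1, 20 kPa Elastic replicate 1 and 20 kPa Viscoelastic replicate 2. Both calls of Kat5 were also lost with length, GC content and the replicate term modelled together. Rnaseh2c on the opposite strand covers 12.1% of its exon bases.

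In the GNAT family, the paralogs Kat2b and Kat2a changed in opposite directions, and their levels per kilobase came closer. Kat2b (PCAF), a SAGA and ATAC acetyltransferase of histone H3, read 41.7, 42.5 and 45.1 CPM (2 kPa Elastic), 48.3, 41.0 and 47.5 CPM (2 kPa Viscoelastic), 40.8, 38.0 and 33.4 CPM (20 kPa Elastic), while 20 kPa Viscoelastic gels gave 48.4, 43.3 and 43.7 CPM. Groups overlapped at 2 kPa only. Kat2b rose by 0.27 ± 0.080 at 20 kPa (log2, adjusted p = 0.0178) and by 0.18 ± 0.057 on average (adjusted p = 0.0226). At 20 kPa the call was lost without 20 kPa Elastic replicate 3 or 20 kPa Viscoelastic replicate 1 (adjusted p up to 0.0954). The average call was lost without either of these, without 2 kPa Elastic replicate 1 or 2, or without 2 kPa Viscoelastic replicate 3 (adjusted p up to 0.0621).

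Kat2a (GCN5), which takes the same seat in SAGA and ATAC, read 54.6, 47.7 and 52.3 CPM (2 kPa Elastic), 44.3, 44.7 and 47.9 CPM (2 kPa Viscoelastic), 51.4, 49.9 and 50.4 CPM (20 kPa Elastic), while 20 kPa Viscoelastic gels gave 51.2, 44.4 and 45.5 CPM. Groups overlapped at both stiffnesses. Kat2a fell by 0.14 ± 0.047 on average (log2, adjusted p = 0.0275), a call lost with total counts alone (adjusted p = 0.125) and without 2 kPa Elastic replicate 1 or 3, 2 kPa Viscoelastic replicate 1 or 20 kPa Viscoelastic replicate 2 or 3 (adjusted p up to 0.0768). Per kilobase, Kat2b stood at 0.529 ± 0.0485 of Kat2a on 20 kPa Elastic and 0.687 ± 0.0109 on 20 kPa Viscoelastic gels, and at 0.600 ± 0.0471 and 0.715 ± 0.0623 on the 2-kPa gels (SD, n = 3). The ranges of this ratio did not overlap at either stiffness. The pseudogene Kat2b-ps may share reads with Kat2b.

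Hat1 read 42.0, 42.8 and 39.5 CPM (2 kPa Elastic), 37.7, 37.1 and 37.6 CPM (2 kPa Viscoelastic), 50.1, 49.0 and 58.1 CPM (20 kPa Elastic), while 20 kPa Viscoelastic gels gave 47.3, 39.4 and 43.7 CPM. Groups did not overlap in any of the 4 pairwise comparisons. Hat1 fell by 0.27 ± 0.075 at 20 kPa (log2, adjusted p = 0.0129) and by 0.21 ± 0.053 on average (adjusted p = 0.00629), and rose by 0.34 ± 0.075 with stiffness on elastic gels (adjusted p = 0.00818). The call at 20 kPa was lost without 20 kPa Elastic replicate 3 or 20 kPa Viscoelastic replicate 2 (adjusted p up to 0.0789), and that for stiffness with length and GC modelled (adjusted p = 0.0589). The average call was kept in every alternative.

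Transcripts of dividing cells also differed between the gels. Of 15 proliferation markers, all 15 fell on viscoelastic gels on average (median log2 fold change -0.47), beside 20.4% of all genes. The study's own EdU labelling at 48 h, a measure of DNA synthesis, went otherwise between viscoelastic and elastic gels. It reports more proliferation on viscoelastic than on elastic 2-kPa gels and no significant difference at 20 kPa. With stiffness on elastic gels it reports more proliferation, the direction these transcripts also took there. These transcripts alone do not show how many cells divided. Why they part from the labelling between gel types was not tested. At 20 kPa 14 fell (16.1% of all genes), and with stiffness on elastic gels 12 rose (6.81% of all genes). At 2 kPa 10 fell (11.1% of all genes), where Hat1 was not called (-0.15, adjusted p = 0.185). Mcm5, a subunit of the replicative helicase, had the lowest adjusted p among them (log2 fold change -0.56, adjusted p = 1.93e-05). The part of this shift in the levels of Hat1, Kat7 or any other member was not tested. Naa60, an acetyltransferase of the Golgi, was the only GNAT or type B gene with no call, at 26.8 to 36.5 CPM.

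Ep300 fell, while its paralog Crebbp was not called. Both acetylate histone H3 at enhancers. Ep300 read 137, 139 and 128 CPM (2 kPa Elastic), 124, 102 and 113 CPM (2 kPa Viscoelastic), 118, 127 and 133 CPM (20 kPa Elastic), while 20 kPa Viscoelastic gels gave 111, 99.7 and 109 CPM. Groups did not overlap at either stiffness. Ep300 fell by 0.26 ± 0.075 at 2 kPa (log2, adjusted p = 0.0253), by 0.24 ± 0.075 at 20 kPa (adjusted p = 0.0230) and by 0.25 ± 0.053 on average (adjusted p = 0.00192). With exon length and GC content modelled, the log2 fold change was -0.13 at both stiffnesses (adjusted p = 0.158 and 0.132) and -0.13 on average (adjusted p = 0.0310), so that only the average stayed called.

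The Ep300 call at 2 kPa was lost without 2 kPa Elastic replicate 1 or 2 or 2 kPa Viscoelastic replicate 2 or 3 (adjusted p up to 0.0937), and that at 20 kPa without 20 kPa Elastic replicate 2 or 3 or 20 kPa Viscoelastic replicate 2 (adjusted p up to 0.0991). The 2-kPa call was also lost with the 6 samples compared alone. Crebbp (CBP) lay between 89.7 and 104 CPM, with a log2 fold change of -0.05 on average (adjusted p = 0.279). Per kilobase, Ep300 stood at 1.27 ± 0.0423 times Crebbp on 2 kPa Elastic and 1.10 ± 0.118 on 2 kPa Viscoelastic gels, whose ranges did not overlap, and at 1.23 ± 0.0958 and 1.09 ± 0.0861 on the 20-kPa gels, whose ranges did (SD, n = 3). The difference between the effects on the 2 genes was not tested.

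Among the steroid receptor coactivators, Ncoa3 alone was called. Ncoa3 (SRC-3) brings p300 and CBP to nuclear receptors. It read 52.9, 51.9 and 49.8 CPM (2 kPa Elastic), 46.0, 44.1 and 47.6 CPM (2 kPa Viscoelastic), 48.1, 49.0 and 49.7 CPM (20 kPa Elastic), while 20 kPa Viscoelastic gels gave 42.6, 40.4 and 43.1 CPM. All viscoelastic samples lay below all elastic ones. Ncoa3 fell by 0.17 ± 0.053 at 2 kPa (log2, adjusted p = 0.0361), by 0.22 ± 0.053 at 20 kPa (adjusted p = 0.00535) and by 0.19 ± 0.037 on average (adjusted p = 0.000973).

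The Ncoa3 calls at 20 kPa and on average were kept in every alternative, although the average was -0.12 with exon length and GC content modelled. The call at 2 kPa was lost there (log2 fold change -0.09, adjusted p = 0.223), with a replicate term (adjusted p = 0.0558), and without any 1 of 7 libraries, namely 2 kPa Elastic replicates 1 and 2, 2 kPa Viscoelastic replicates 1 and 2, 20 kPa Elastic replicates 1 and 2 and 20 kPa Viscoelastic replicate 1 (adjusted p up to 0.136). The 2-kPa call was also lost with total counts alone, with every gene that had a count and with the 6 samples compared alone. Ncoa1, at 26.6 to 33.4 CPM, and Ncoa2, at 65.0 to 80.1 CPM, had no call.

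The BET readers had no call in any comparison. Brd2 lay between 251 and 279 CPM and Brd3, which binds acetylated GATA factors and histones, between 77.1 and 89.9 CPM. Their average log2 fold changes were -0.03 (adjusted p = 0.621) and 0.04 (adjusted p = 0.475). The 95% intervals of these averages were -0.11 to 0.05 for Brd2 and -0.05 to 0.12 for Brd3. Brd3 stood at 0.317 ± 0.0185 to 0.344 ± 0.0343 of Brd2 per kilobase across the 4 groups.

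Fold changes depended on transcript length across the whole table, and the members are long. Over 14303 genes with a known length, the average viscoelastic effect had a Spearman rho of -0.336 with exon length (across genes, which are not independent). Its median was 0.12 in the shortest quartile of genes and -0.09 in the longest, which starts at 6733 bp. The longest quartile held 13 of the 34 members, Ep300 (14273 bp) and Kat6a (9180 bp) among them, and the shortest held 1. Among genes of like length, Hdac8 (4839 bp), Sirt5 (6093 bp), Kat2b (4867 bp), Sirt2 (5035 bp), Hdac2 (4474 bp), Kat8 (2891 bp) and, with no call, Sirt3 and Ncoa1 stood above the middle quartiles. Kat6a, Hat1 (2886 bp), Kat2a (3480 bp) and Kat7 (5536 bp) stood below them, and the other members, Ep300 and Ncoa3 among them, lay inside. Hdac2, Kat8 and Kat7 were close to the edge.

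**Figure D4:**
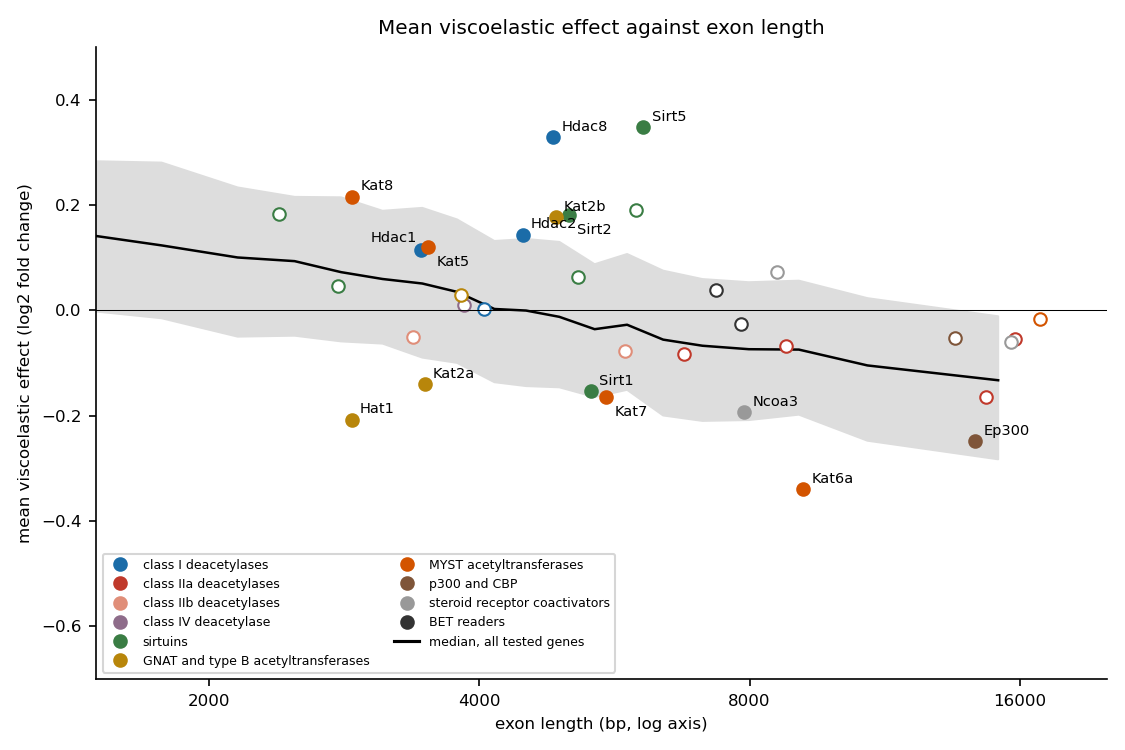
Mean viscoelastic effect (log2 fold change) against exon length (bp, log axis) for the 34 genes, filled where called; the line is the median of all tested genes in 20 bins of length and the grey band their middle quartiles. Hdac8 and Sirt5 lie above the band and Kat6a and Hat1 below it, whereas Ep300 and Ncoa3 lie inside.

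The subunits that carry these enzymes, the genes that supply acetyl-CoA and NAD, and other acetyl readers were listed as well, 122 genes of which 119 were tested. On average 49 of them were called (41.2%), 18 higher and 31 lower, beside the 40% of all genes, 19.6% higher and 20.4% lower. In the Sin3 complex, 4 of 9 subunits rose and 1 fell: Sap18, a small subunit, rose by 0.21 (log2, adjusted p = 0.00159), and Sin3a, the scaffold, fell by 0.12 (adjusted p = 0.0142). In NuRD, 2 of 11 rose and 2 fell, led by the methyl-DNA binder Mbd2 (0.19, adjusted p = 0.00228) and the remodeller Chd4 (-0.18, adjusted p = 0.00244).

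In CoREST and MiDAC, 1 of 10 rose, Dnttip1 (log2 fold change 0.11, adjusted p = 0.0417), and 3 fell, led by Rcor1 (-0.27, adjusted p = 0.000281). Over all genes, 19.6% were called higher and 20.4% lower.

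Of the acetyltransferase complexes, SAGA and ATAC had 2 of 15 higher and 4 lower, led by Supt3 (log2 fold change 0.36, adjusted p = 0.000258) and by Trrap, a large scaffold (-0.28, adjusted p = 0.00186). TIP60 had 1 of 12 higher, Morf4l1 (0.15, adjusted p = 0.0136), and 1 lower, the ATPase Ep400 (-0.38, adjusted p = 0.000224). The MOZ and HBO1 partners of Kat6a and Kat7 had 3 of 8 lower and none higher, led by Jade2 (-0.22, adjusted p = 0.00108). MSL and NSL partners of Kat8 had 1 of 8 higher, Kansl2 (0.16, adjusted p = 0.00374), and 2 lower, led by Msl2 (-0.23, adjusted p = 0.00149). Beside these counts, 19.6% of all genes were called higher and 20.4% lower, and no list was tested against those shares.

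Genes that bind, phosphorylate or export class IIa enzymes had 5 of 10 lower and none higher on average, beside 20.4% of all genes lower, led by the kinase Sik3 (log2 fold change -0.28, adjusted p = 0.000647). At 2 kPa 1 of the 10 was higher and 4 were lower, beside 8.77% and 11.1% of all genes. At 20 kPa 1 was higher and 2 were lower, beside 17.4% and 16.1% of all genes. Of 10 acetyl-CoA and NAD supply genes, 2 rose and 1 fell on average, beside 19.6% of all genes higher and 20.4% lower. The citrate carrier Slc25a1 rose by 0.21 (adjusted p = 0.00187) and Acly, which makes acetyl-CoA from citrate, fell by 0.15 (adjusted p = 0.00786). Of 21 other bromodomain and YEATS readers, 4 rose and 8 fell on average, beside the same shares of all genes. They were led by the remodeller Smarca2 (0.23, adjusted p = 0.000329) and by Atad2 (-0.50, adjusted p = 7.24e-05), which is expressed in dividing cells.

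**Figure D5:**
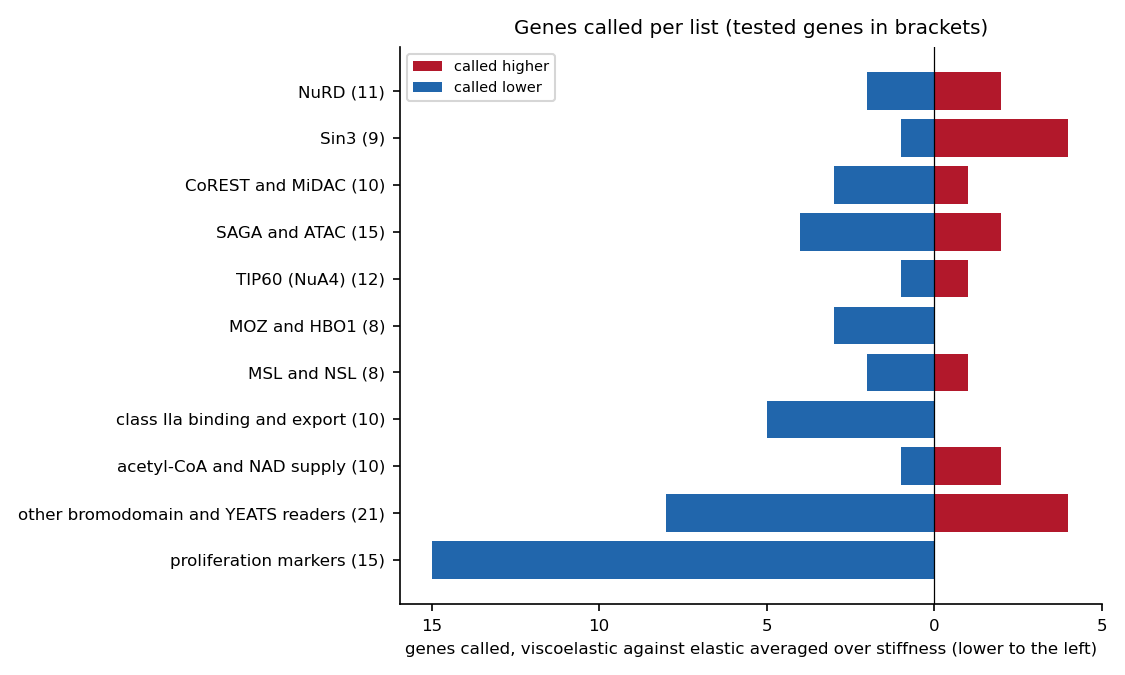
Number of genes called higher (right) or lower (left) on viscoelastic against elastic gels, averaged over stiffness, in the lists of partners, supply genes, other readers and proliferation markers described here, with the number tested in brackets. Sin3 has 4 higher and 1 lower, while class IIa binding genes, MOZ and HBO1 partners and proliferation markers have none higher. Of all genes, 19.6% were called higher and 20.4% lower.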

How the data were processed

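RNA of 12 samples, 3 in each of 4 gel groups, was sequenced by the authors. Per the submitters' processing notes, Trimmomatic, STAR and featureCounts were used with mm10, and the values deposited are raw counts per gene without normalization. Annotation release, strandedness and treatment of multi-mapping reads are not given in the sources used here.

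Testing used edgeR 4.0.16 (R 4.3.3). After filterByExpr (minimum count 10, minimum total 15) and TMM scaling (factors 0.968 to 1.03), all 12 samples entered a single quasi-likelihood fit of the 4 group means, with a common biological coefficient of variation of 7.50%. P-values were adjusted over 14542 genes by the Benjamini-Hochberg method and called under 0.05. DESeq2 1.42.0, the study's own tool, served as an alternative. Fold changes are log2 with their SE, and levels are TMM-scaled CPM. Exon lengths and GC content come from GENCODE vM21 and promoters from RefSeq (GRCm38.p6). The study calls its replicates biological, but animals behind each are not given, so p-values measure the spread between these samples.

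The members and gene lists were chosen with earlier results of these data known. Members called in any of 6 comparisons are given by sample. Members without a call are given by range, and singly where their level is the lowest or highest or they alone lack a call in their family. Of each other list, the called gene with the lowest adjusted p in each direction on average is named, and 1 list of corepressor subunits, counted in the totals, is not reported here singly.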

Additional observations from a re-analysis of the deposited data

Results flagged for a closer look

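The viscoelastic effect differed between 2 and 20 kPa for 2 of the 34 genes, by edgeR's interaction term, beside 7.56% of all genes. For Hdac7 the effect at 20 kPa minus that at 2 kPa was -0.51 (log2, adjusted p = 0.000867), with 0.17 at 2 kPa and -0.34 at 20 kPa, and the call was kept in every alternative. For Hdac4 it was -0.48 (adjusted p = 0.0229), with 0.19 at 2 kPa and -0.29 at 20 kPa, and it was lost without 2 kPa Elastic replicate 1 or 3, 2 kPa Viscoelastic replicate 1, 20 kPa Elastic replicate 2 or 20 kPa Viscoelastic replicate 3 (adjusted p up to 0.0633). Of the partner genes named, 2 had effects that differed with the opposite sign: Supt3 by 0.42 (adjusted p = 0.0376) and Smarca2 by 0.29 (adjusted p = 0.0326). Both were named for their adjusted p in the average comparison. Of all 119 partner, supply and reader genes tested, 6 were called for the interaction (5.04%), 5 higher and 1 lower, beside 7.56% of all genes.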

How the results depend on the processing

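Of 42 calls, 15 held in every alternative and 19 in every fit that left out 1 library, and no call reversed. A threshold of 0.01 ended 24 of the 42, exon length and GC content with the replicate block 14, exon length and GC content alone 10, a replicate term 6, the filter on low counts 7 when omitted, total counts alone 4, the 6 compared samples alone 3, DESeq2's test 1 and DESeq2's size factors 0. The count of 5 members at 2 kPa was 3 with every gene that had a count, 2 with the 6 compared samples alone, 1 at adjusted p under 0.01, and 1 to 5 without 1 library. At 20 kPa the 15 became 5 at adjusted p under 0.01 and 7 to 16 without 1 library. Stiffness on elastic gels gave 3 with length and GC modelled, 2 with these and the replicate block together, 2 at adjusted p under 0.01, and 3 to 6 without 1 library. On viscoelastic gels it gave 1 with every gene, 4 with DESeq2's test and 0 to 1 without 1 library, where the 1 came without 2 kPa Elastic replicate 3. The average gave 9 at adjusted p under 0.01 and 12 to 16 without 1 library, and the interaction 1 at adjusted p under 0.01 and 1 to 2 without 1 library. The shares of all genes called at these settings are not given here, so these counts only describe the members. The cause was not tested.

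Replicate numbers did not pair the samples: over 18 pairs with the same number, deviations correlated at -0.20 to 0.31, with a mean of -0.025 and 2 above 0.1. With the replicate block, 3 members were called at 2 kPa, 13 at 20 kPa, 5 for stiffness on elastic gels, 0 on viscoelastic gels, 13 on average and 2 for the interaction. The shares of all genes called with this block are not given here either.

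All 34 levels per kilobase moved by less than their SD with DESeq2's size factors. Of 180 family medians recomputed under other scalings or offsets, 36 moved by more than the spread between replicates. Hdac9 and Hdac11, with 152 to 248 and 87 to 130 counts, had the lowest counts of the members. The gene-wise biological coefficient of variation was highest for Hdac9 (10.4%) and Hdac10 (9.85%), and was 7.28% for Hdac11.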
